A study of Mus musculus with 6 samples.

Results

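The genes described here are 10 interleukins and epithelial cytokines of the mouse, *Il6*, *Il24*, *Il1a*, *Il1b*, *Il1rn*, *Il11*, *Il33*, *Il34*, *Lif* and *Tslp*. They were taken by symbol from the gene table of the series, which holds 17428 genes, and all 10 were in it. RNA was sequenced from the EpH4 line ("EpH-4 cells" in the labels), an untransformed mouse mammary epithelial cell line, in 3 states with 2 libraries each. E cells were cultured without added TGFβ1, M cells received TGFβ1 for 7 days, and RE cells received TGFβ1 for 7 days followed by another 4 days in normal medium without it. All 3 states derive from 1 line and shared the same serum- and insulin-containing medium. The libraries are called E1, E2, M1, M2, RE1 and RE2 as in the labels. They are biological replicates by the study's account, so that p-values measure the spread between 2 cultures of 1 line in each state.

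Cytokines of this kind are secreted by epithelial cells and act on receptors of neighbouring stromal, immune and epithelial cells. The interleukin-1 family (*Il1a*, *Il1b*, *Il33* and the receptor antagonist encoded by *Il1rn*) signals through MyD88 and the IRAK kinases, and the antagonist occupies the receptor of both IL-1 cytokines without activating it. The IL-6 family (*Il6*, *Il11*, *Lif*) signals through a shared receptor subunit encoded by *Il6st*, and through JAK kinases and STAT3. IL-24 uses receptors built with the subunits encoded by *Il20rb* and *Il22ra1*, TSLP uses *Crlf2* together with *Il7r*, and IL-34 shares its receptor, *Csf1r*, with the macrophage growth factor CSF1.

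Values are given as normalized coverage in ppm, that is, a gene's part of the sequenced bases of its library after TMM scaling. Library depth was 35782513 to 47928557 reads' worth of 50 bases, and the floor was set at 3 reads' worth, or 0.0635 to 0.0781 ppm. E1 and E2 differed from each other more than the replicates of M or RE did, with an SD over genes of their log2 difference of 0.558, against 0.318 in M and 0.309 in RE. Differences were tested with limma on log2(ppm + 0.1) over all 6 libraries, for the 13893 genes that reached 500 bases in 2 or more of them. A gene was called when its log2 fold change exceeded 1 in size and its Benjamini-Hochberg adjusted p, taken over all genes tested, was below 0.01. The words "rose" and "fell" are used only for called genes. Positive log2 fold changes stand for more coverage in the state named second. On this scale the change of a gene with little coverage is understated. The 3 comparisons share libraries, so that their results are not independent of each other.

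The label of the cells was checked against marker genes. *Krt8*, *Krt18*, *Krt14* and *Cdh1* were between 122 and 880 ppm in every library, *Krt5* was between 0.0476 and 0.478 ppm, and *Epcam* was not analysed here. Of the 7 immune markers, *Ptprc*, *Emr1* and *Cd3e* were close to or below the floor. *Itgam* was at 0.0463 and 0.0521 ppm in E, 0.144 and 0.204 ppm in M and 0.168 and 0.179 ppm in RE. *Cd79a* was between 0.0537 and 0.194 ppm in the 6 libraries, and neither gene was tested. The immune list summed to between 5.58 and 9.63 ppm, most of it *Cd68*. *Lyz2* was called higher in RE cells (0.771 and 0.651 ppm) than in E cells (0.191 and 0.130 ppm). The 4 fibroblast markers measured summed to 84.7 and 113 ppm in E, 488 and 442 ppm in M and 907 and 766 ppm in RE, most of it *Pdgfrb*, while *Thy1* was at or below 0.0240 ppm in every library. The 3 endothelial markers summed to at most 2.62 ppm. Of these, *Cdh5* was at 0 ppm in E1 and E2, 2.33 and 2.07 ppm in M and 0.0423 and 0.0910 ppm in RE. *Cdh5* was called higher in M than in E cells (log2 fold change 4.52) and lower in RE than in M cells (−3.80). The 5 epithelial markers measured summed to 1695 and 1342 ppm in E, 1814 and 1930 ppm in M and 987 and 1047 ppm in RE. *Krt14* was called higher in M than in E cells (log2 fold change 1.42), *Krt8* (−1.32) and *Krt14* (−1.10) lower in RE than in M cells, and *Krt18* lower in RE than in E cells (−1.34). The fibroblast markers *Pdgfrb* (3.25), *Dcn* (2.45) and *Pdgfra* (2.18) were called higher in RE than in E cells. *Dcn* (4.70) and *Pdgfra* (1.41) were also called higher in RE than in M cells. In M against E cells *Pdgfrb* was called higher (2.46) and *Dcn* lower (−2.24). The epithelial and fibroblast lists and *Cdh5* therefore differed between the same groups as several cytokines below. Among these was *Il24*, which was lowest in RE cells, as was the sum of the epithelial markers. The part of the markers in these results was not tested.

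Of the 10 cytokines, 9 had enough coverage to be tested and *Il1b* did not. *Il11* passed the filter through M cells alone, the state where it was highest, so that its differences from M are descriptions of a gene chosen through M. After TGFβ1 treatment 4 of the 9 were called, with *Il11* higher and *Il1rn*, *Il33* and *Il34* lower in M cells, where 17% of all tested genes were called (8.58% higher and 8.39% lower in M). After TGFβ1 removal 5 of the 9 were called, with *Il1rn*, *Il33* and *Il34* higher and *Il24* and *Il11* lower in RE than in M cells, against 12.9% of all tested genes (8.08% higher and 4.79% lower in RE). Between E and RE cells 3 of the 9 were called, with *Il1rn* higher and *Il24* and *Tslp* lower in RE cells, against 9.37% of all tested genes (6.2% higher and 3.17% lower in RE). In all, 6 of the 9 were called in at least 1 comparison (24.2% of all tested genes), and *Il6*, *Il1a* and *Lif* in none. Without *Il11*, 3 of 8 were called in E vs. M, all lower in M, 4 of 8 in M vs. RE and 3 of 8 in E vs. RE, and 5 of 8 in at least 1.

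**Figure D1:**
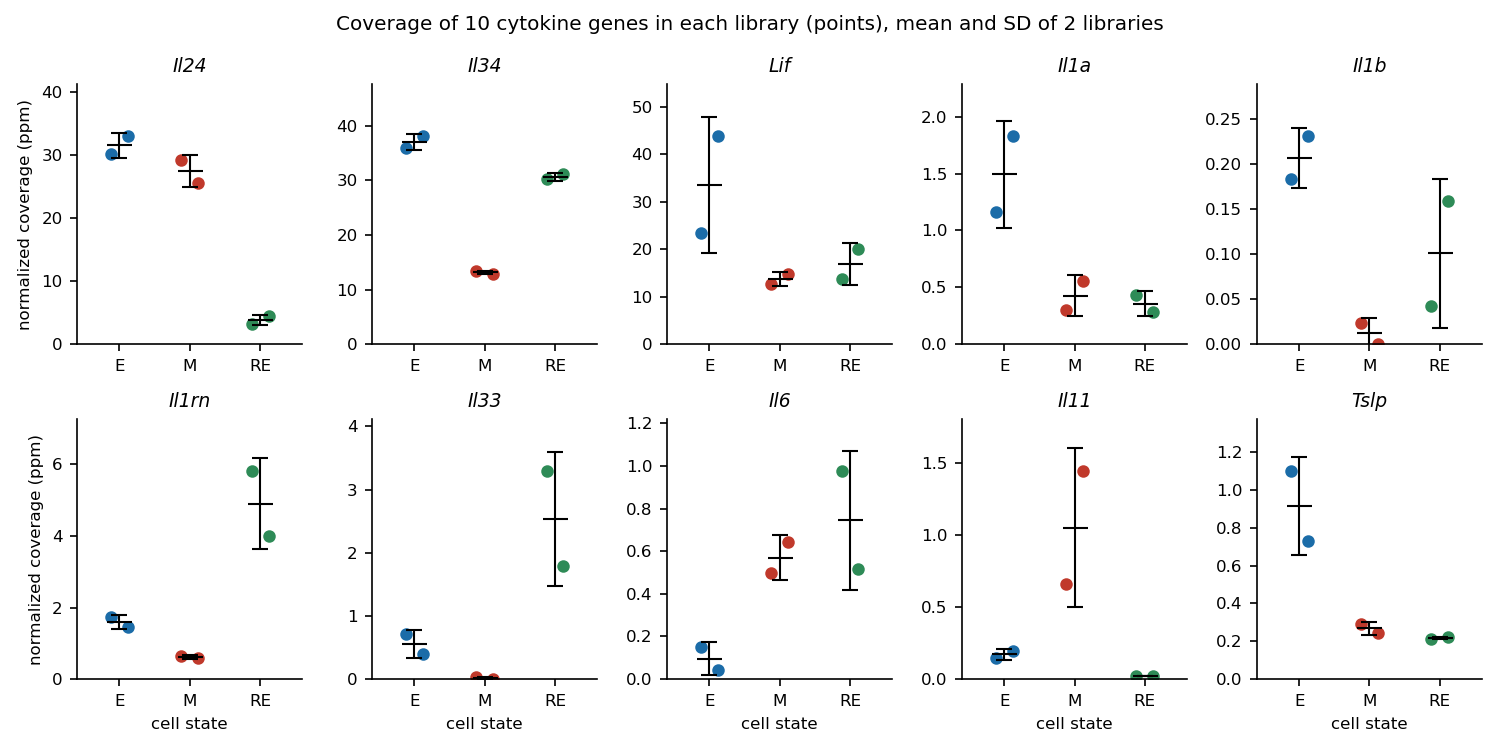
Normalized coverage (ppm, linear axes that differ between panels) of the 10 cytokine genes in E, M and RE cells. Each point is 1 library and the bars give the mean and SD of 2 libraries. *Il24* was lowest in RE cells, *Il34*, *Il33* and *Il1rn* were lowest in M cells, and *Il11* was highest in M cells.

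The median log2 fold change of the 9 tested cytokines was −1.24 when M was compared with E, 0.27 when RE was compared with M and −0.95 when RE was compared with E. Without *Il11* it was −1.34, 0.28 and −0.61, and over all tested genes 0.0013, −0.02 and 0.0079. The 2 libraries of one state and the 2 of the other did not overlap for 10 of 10 cytokines (*Il1b* included) between E and M, 7 of 10 between M and RE and 10 of 10 between E and RE. The background for this was high, since the libraries did not overlap for 70.6%, 78.1% and 66.7% of all tested genes. The 3 overlapping cases were *Il6*, *Il1a* and *Lif* in M vs. RE. Since whole cultures were sequenced, a lower share of cells expressing a gene and less of its RNA per cell cannot be told apart.

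**Figure D2:**
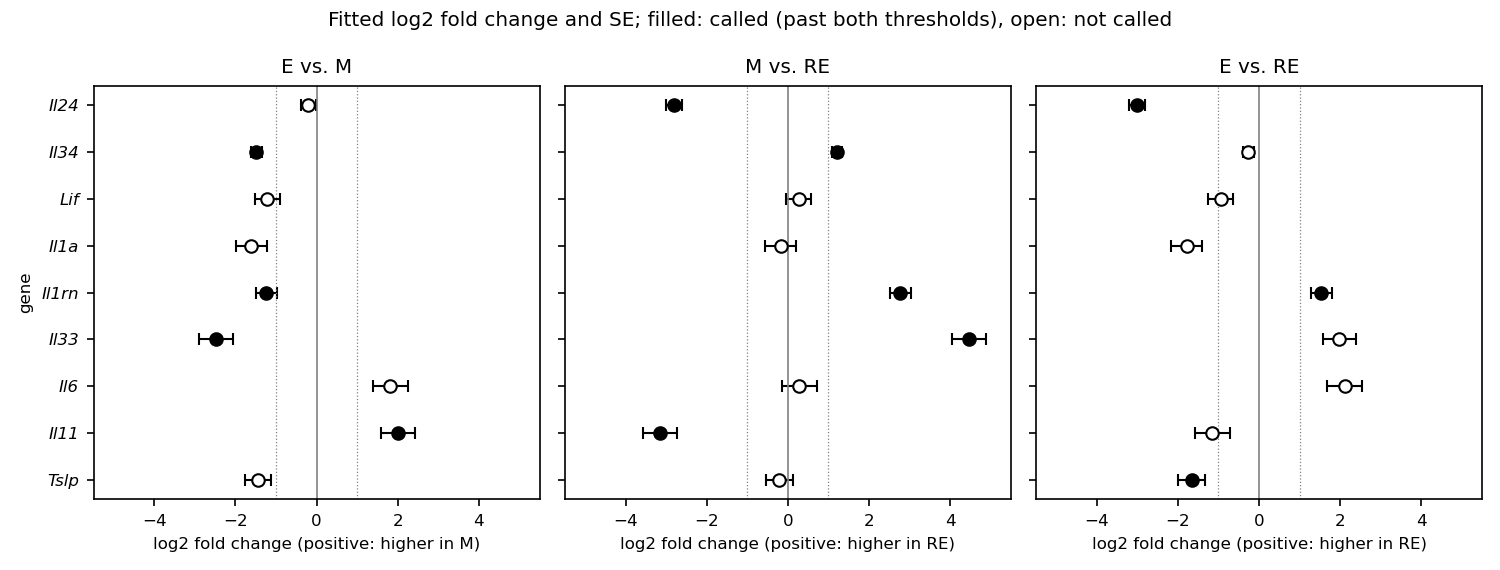
Fitted log2 fold change with its standard error for the 9 tested cytokines in the 3 comparisons. Filled points were called and open points were not, and dotted lines mark a log2 fold change of 1 in either direction. *Il24* is near 0 in E vs. M (−0.20) and far below it in M vs. RE (−2.81) and E vs. RE (−3.01), while *Il34* is near 0 in E vs. RE (−0.27).

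Promoter sequences, the 250 bases before an annotated start, were read from RefSeq (GRCm38.p6), a newer build than that used for mapping, and gave 11 windows for 7 of the 10 cytokines, with 2 of the *Il1rn* windows overlapping. No window was used for *Il24*, *Il34* and *Tslp*, so that the motif shares of the cytokines do not cover these genes. Windows were searched on both strands for the AP-1 motif TGANTCA, the STAT motif TTCNNNGAA, the TATA box written TATAAA and the NF-kB motif, motifs that are often looked for in cytokine promoters. AP-1 matches stood in 5 of the 11 windows (45.5%), those of *Il6*, *Il1a*, *Il1rn*, *Il11* and *Lif*, and in 6.75% of 32851 mouse promoter windows of this length. NF-kB matches stood in 2 windows, those of *Il6* and *Lif* (7.25% of all windows), TATA matches in 4 windows of *Il1a*, *Il1b* and *Il33* (12.4% of all windows), and STAT matches in 0 (7.02% of all windows). The TATA match began 32 bases before the start in *Il1a*, 31 in *Il1b* and 29 in the second *Il33* window. The AP-1 match began 12 bases before the start in *Il1a*, 98 in the second *Il11* window, 141 in the first *Il1rn* window, 228 in *Lif* and 249 in *Il6*. No match of one motif overlapped that of another, and a match describes letters and not a bound site. The 5 windows with an AP-1 match follow, together with the second window of *Il33*, the gene with the widest fitted change. They are written 5′ to 3′ on the gene's strand in lower case, and capitals mark the motif matches.
Il6, chr5:30012864-30013113, plus strand: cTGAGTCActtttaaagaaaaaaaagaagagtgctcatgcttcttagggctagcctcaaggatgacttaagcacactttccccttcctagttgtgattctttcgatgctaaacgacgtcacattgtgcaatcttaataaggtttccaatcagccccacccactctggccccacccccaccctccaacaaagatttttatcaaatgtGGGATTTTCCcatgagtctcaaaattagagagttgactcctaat
Il1a, chr2:129309973-129310222, minus strand: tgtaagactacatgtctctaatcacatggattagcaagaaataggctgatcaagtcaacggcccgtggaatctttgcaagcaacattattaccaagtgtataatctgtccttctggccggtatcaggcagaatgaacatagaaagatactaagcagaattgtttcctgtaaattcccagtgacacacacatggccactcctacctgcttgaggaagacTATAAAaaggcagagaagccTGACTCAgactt
Il1rn, chr2:24336610-24336859, plus strand: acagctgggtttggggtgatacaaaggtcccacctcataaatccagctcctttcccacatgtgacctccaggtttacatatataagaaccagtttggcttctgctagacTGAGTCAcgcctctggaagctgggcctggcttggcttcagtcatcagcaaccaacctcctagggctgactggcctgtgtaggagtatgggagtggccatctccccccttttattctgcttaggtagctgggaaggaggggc
Il11, chr7:4778142-4778391, minus strand: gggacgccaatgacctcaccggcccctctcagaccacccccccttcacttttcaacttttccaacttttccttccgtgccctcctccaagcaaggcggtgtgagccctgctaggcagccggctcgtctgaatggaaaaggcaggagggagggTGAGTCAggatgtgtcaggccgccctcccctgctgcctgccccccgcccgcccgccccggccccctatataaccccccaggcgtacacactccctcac
Lif, chr11:4257318-4257567, plus strand: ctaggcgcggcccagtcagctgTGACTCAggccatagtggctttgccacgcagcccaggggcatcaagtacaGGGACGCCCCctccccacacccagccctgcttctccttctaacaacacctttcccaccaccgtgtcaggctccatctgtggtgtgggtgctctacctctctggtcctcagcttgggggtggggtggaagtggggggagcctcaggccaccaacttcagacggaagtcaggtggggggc
Il33, chr19:29945540-29945789, plus strand: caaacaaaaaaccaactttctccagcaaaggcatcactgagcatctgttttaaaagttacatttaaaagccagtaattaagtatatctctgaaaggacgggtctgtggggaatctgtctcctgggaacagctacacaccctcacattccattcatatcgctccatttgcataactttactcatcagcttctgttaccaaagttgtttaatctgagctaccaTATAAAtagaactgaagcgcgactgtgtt
The cytokines that hold an AP-1 match did not share a course over the 3 states. *Il11* was highest in M cells, *Il1rn* in RE cells, and *Il1a* and *Lif* in E cells.

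*Il24* encodes a cytokine of the IL-10 family, which epithelial cells release and answer to. Its coverage was 30.2 and 33.0 ppm in E1 and E2, 29.2 and 25.6 ppm in M1 and M2, and 3.27 and 4.46 ppm in RE1 and RE2. Both RE libraries were far below every E and M library, and the E libraries lay just above the M libraries. The mean was 31.6 ± 1.97 ppm in E, 27.4 ± 2.55 ppm in M and 3.86 ± 0.837 ppm in RE (SD, n = 2), a level 7.10-fold lower in RE than in M cells and 8.17-fold lower than in E cells. *Il24* fell in M vs. RE (log2 fold change −2.81, SE 0.19, limma's adjusted p = 5.6e-05) and in E vs. RE (−3.01, SE 0.19, adjusted p = 0.000223), and was not called in E vs. M (−0.20, SE 0.19, adjusted p = 0.421). Both calls held in each of the 16 alternative settings, including without any 1 library. *Il24* and *Il1rn*, in opposite directions, were the cytokines whose RE level was called against E and against M with the same sign, as were 3.02% of all tested genes. In RefSeq's gene order *Il24* stands beside *Il20* and *Il19* on chromosome 1. *Il19* was between 0.0296 and 0.197 ppm in the 6 libraries and was not tested, and *Il20* was not analysed here.

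*Il34* encodes the alternative ligand of the CSF1 receptor and had the smallest standard error of the 9 tested cytokines. It was at 35.9 and 38.0 ppm in E, 13.4 and 12.9 ppm in M and 30.1 and 31.1 ppm in RE. Every M library was below every other library, and the RE libraries were below the E libraries. *Il34* fell in M cells by 1.48 on the log2 scale (SE 0.13, limma's adjusted p = 0.000179), a level 2.81-fold lower. It rose in RE against M cells by 1.21 (SE 0.13, adjusted p = 0.000548), a level 2.33-fold higher, and was not called between E and RE cells (−0.27, SE 0.13, adjusted p = 0.165). The fall in M cells held in all 16 alternatives. The rise in RE cells was not called without M1 (adjusted p = 0.0114), M2 (0.0128), RE1 (0.0125) or RE2 (0.0126), with log2 fold changes of 1.19 to 1.24.

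The interleukin-1 family was followed through 2 agonists, their antagonist and *Il33*. *Il1a*, the IL-1 agonist that epithelial cells keep in store, was at 1.16 and 1.83 ppm in E, 0.300 and 0.552 ppm in M and 0.435 and 0.281 ppm in RE. Both E libraries were above all M and RE libraries, which overlapped each other. Its log2 fold change was −1.61 (SE 0.38, limma's adjusted p = 0.0130) in E vs. M, −0.18 (adjusted p = 0.759) in M vs. RE and −1.79 (adjusted p = 0.0127) in E vs. RE, so that *Il1a* was not called in any. Without E1 it was called against both M (−1.91, adjusted p = 0.00201) and RE cells (−2.09, adjusted p = 0.00137).

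*Il1b*, the agonist that is released after caspase-1 cleavage and stands next to *Il1a* on chromosome 2, was barely covered. It had 7.92 and 8.86 reads' worth in E, 1 and 0 in M and 2 and 7 in RE, or 0.183 and 0.231 ppm, 0.0240 and 0 ppm, and 0.0423 and 0.159 ppm. Rounded to whole reads, E held 17 and M held 1, a level 17.3-fold higher in E cells, with an exact 95% counting interval of 2.71 to 722. Against the same single read, the 9 reads' worth in RE gave a level 8.18-fold higher (1.13 to 359). These intervals cover counting error only and leave out the spread between cultures.

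*Il1rn*, which encodes the antagonist of both IL-1 agonists, was at 1.74 and 1.46 ppm in E, 0.655 and 0.583 ppm in M and 5.81 and 4.00 ppm in RE. The 3 states did not overlap, with M cells lowest and RE cells highest. *Il1rn* fell in M cells (log2 fold change −1.24, SE 0.27, limma's adjusted p = 0.00873), rose in RE against M cells (2.78, SE 0.27, adjusted p = 0.000272) and rose in RE against E cells (1.54, SE 0.27, adjusted p = 0.00583). These were levels 2.58-fold lower, 7.92-fold higher and 3.06-fold higher. The rise from M to RE cells held in all 16 alternatives, while the fall in M cells was lost in 8 of them and the rise over E cells in 7. The fall in M cells was not called without M1 (adjusted p = 0.0482), M2 (0.0642), RE1 (0.0186) or RE2 (0.0176), and the rise over E cells was not called without M1 (0.0174), M2 (0.0170), RE1 (0.0808) or RE2 (0.0264). Per kb of exon, the level of *Il1rn* was 0.535 and 0.284 times that of *Il1a* in E1 and E2, 0.778 and 0.377 times in M1 and M2, and 4.76 and 5.08 times in RE1 and RE2. The antagonist's coverage per length was thus below that of *Il1a* in the E and M libraries and above it in both RE libraries. The order in E and M turns on the exon lengths used, 5.54 kb for *Il1rn* and 1.97 kb for *Il1a*, which merge all annotated exons. In plain ppm *Il1rn* was below *Il1a* in E2 only (1.46 against 1.83).

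*Il33* encodes a nuclear cytokine of barrier epithelia that acts as an alarm signal after cell damage. It was at 0.718 and 0.401 ppm in E, 0.0316 and 0 ppm in M and 3.29 and 1.79 ppm in RE, or 31.0 and 15.4 reads' worth, 1.32 and 0, and 155 and 78.7. M cells held hardly a read, and both RE libraries were above both E libraries. *Il33* fell in M cells (log2 fold change −2.48, SE 0.41, limma's adjusted p = 0.00292) and rose in RE against M cells (4.46, SE 0.41, adjusted p = 0.000232). Because M cells had hardly a read, these fitted values depend on the pseudocount. The ratio of mean ppm was 35.4 for E over M and 160.7 for RE over M. With coverage rounded to whole reads (46 in E, 1 in M and 234 in RE) the ratios were 46.7 (exact 95% counting interval 7.98 to 1886) and 212.8 (37.8 to 8441), so that they depend on this rounding too. In RE against E cells the level was 4.54-fold higher but missed the threshold (1.98, SE 0.41, adjusted p = 0.0116). That difference was called with the pseudocount of 1 ppm (1.16, limma's adjusted p = 0.00721). Its value was 2.33 without E1 and 1.63 without E2. The fall in M cells was not called without M1 (adjusted p = 0.0169) or M2 (0.0271) or with a pseudocount of 1 ppm (log2 fold change −0.61, adjusted p = 0.0528), while the rise from M to RE held in all 16 alternatives. The fibroblast marker *Dcn* had the same order as *Il33*, with 0.496 and 0.301 ppm in E, 0 and 0.00679 ppm in M and 3.79 and 1.74 ppm in RE, and its part in this result was not tested.

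In the IL-6 family the 3 genes differed in level and course. *Il11*, a gene known to respond to TGFβ, was at 0.146 and 0.197 ppm in E, 0.660 and 1.44 ppm in M and 0.0212 and 0.0228 ppm in RE, which was 1 read's worth in each RE library. Both M libraries were above all others, and both RE libraries were below the E libraries. *Il11* rose in M cells (log2 fold change 2.00, SE 0.42, limma's adjusted p = 0.00808), where the level was 6.12-fold higher, and fell in RE against M cells (−3.15, SE 0.42, adjusted p = 0.00137). In whole reads (14 in E, 87 in M and 2 in RE) the ratio was 47.8 for M over RE (exact 95% counting interval 12.8 to 401) and 7.82 for E over RE (1.80 to 70.9), where the fit made no call (−1.15, adjusted p = 0.0767). Without RE1 or RE2 neither the rise in M cells (adjusted p = 0.0201 and 0.0199) nor the fall in RE cells (0.0171 and 0.0144) was called, and without an M library *Il11* no longer passed the filter. The rise in M cells was lost in 7 of 14 alternatives, and was 0.78 with a pseudocount of 1 ppm.

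*Il6*, the prototype of the family, was at 0.150 and 0.0422 ppm in E, 0.496 and 0.645 ppm in M and 0.975 and 0.515 ppm in RE. Both E libraries were below all M and RE libraries, which overlapped each other. The log2 fold change was 1.82 (SE 0.43, limma's adjusted p = 0.0124) in E vs. M, 0.29 (adjusted p = 0.653) in M vs. RE and 2.11 (SE 0.43, adjusted p = 0.0104) in E vs. RE, and *Il6* was not called. The E libraries held 6.48 and 1.62 reads' worth. Without E1 *Il6* was called against E cells in both M (2.21, adjusted p = 0.000989) and RE (2.50, adjusted p = 0.000515), and without E2 in E vs. RE (1.70, adjusted p = 0.00414).

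*Lif*, which encodes leukaemia inhibitory factor, had the highest coverage of the 3, with 23.5 and 43.8 ppm in E, 12.8 and 14.8 ppm in M and 13.7 and 20.0 ppm in RE. Both E libraries were above the others, but E1 and E2 themselves lay far apart (33.6 ± 14.3 ppm, SD, n = 2). *Lif* was not called (log2 fold change −1.22, SE 0.31, limma's adjusted p = 0.0162 in E vs. M, 0.27 and 0.552 in M vs. RE, and −0.95 and 0.0515 in E vs. RE). Without E1 the values in E vs. M and E vs. RE were −1.66 and −1.40, and without E2 they were −0.79 and −0.50.

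*Tslp* encodes an epithelial cytokine that acts on dendritic cells and lymphocytes. It was at 1.10 and 0.731 ppm in E, 0.293 and 0.242 ppm in M and 0.212 and 0.221 ppm in RE. The E libraries were above all others and the RE libraries just below the M libraries, with 9.72 to 12.2 reads' worth in M and RE. *Tslp* fell between E and RE cells (log2 fold change −1.66, SE 0.33, limma's adjusted p = 0.00963), a level 4.23-fold lower, and missed the threshold in E vs. M (−1.44, SE 0.33, adjusted p = 0.0110), a level 3.42-fold lower. The M vs. RE value was −0.21 (adjusted p = 0.666). The E vs. RE call was lost in 11 of the 16 alternatives, among them without E1, M1, M2, RE1 or RE2. Without E2 the E vs. M value was −1.72.

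Levels of different genes were compared per kb of exon, with exon lengths from a newer annotation. These lengths merge all annotated exons of a gene, so that the order depends on them. In E cells *Il24* (22.8 ppm per kb), *Il34* (18.9) and *Lif* (7.73) led by a wide margin, and *Il1a* (0.757) and *Tslp* (0.687), whose libraries overlapped, came next. *Il1rn* (0.289), *Il33* (0.194), *Il1b* (0.109), *Il11* (0.0825) and *Il6* (0.0396) followed in E cells with no overlap between neighbours. In M cells *Il24* (19.8), *Il34* (6.71) and *Lif* (3.17) were followed by *Il11* (0.505), then by *Il6* (0.235), *Il1a* (0.216) and *Tslp* (0.201). The libraries of these last 3 overlapped one another. *Il1rn* (0.112) came next in M cells, and *Il1b* and *Il33* were at the floor. In RE cells *Il34* led alone (15.6), followed by *Lif* (3.87) and *Il24* (2.79), whose libraries overlapped, and by *Il1rn* (0.886) and *Il33* (0.880), which also overlapped. *Il6* (0.307), *Il1a* (0.181), *Tslp* (0.163), *Il1b* (0.0529) and, at the floor, *Il11* closed the order in RE cells, and the libraries of *Il1a* overlapped those of *Il6* and of *Tslp*.

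**Figure D3:**
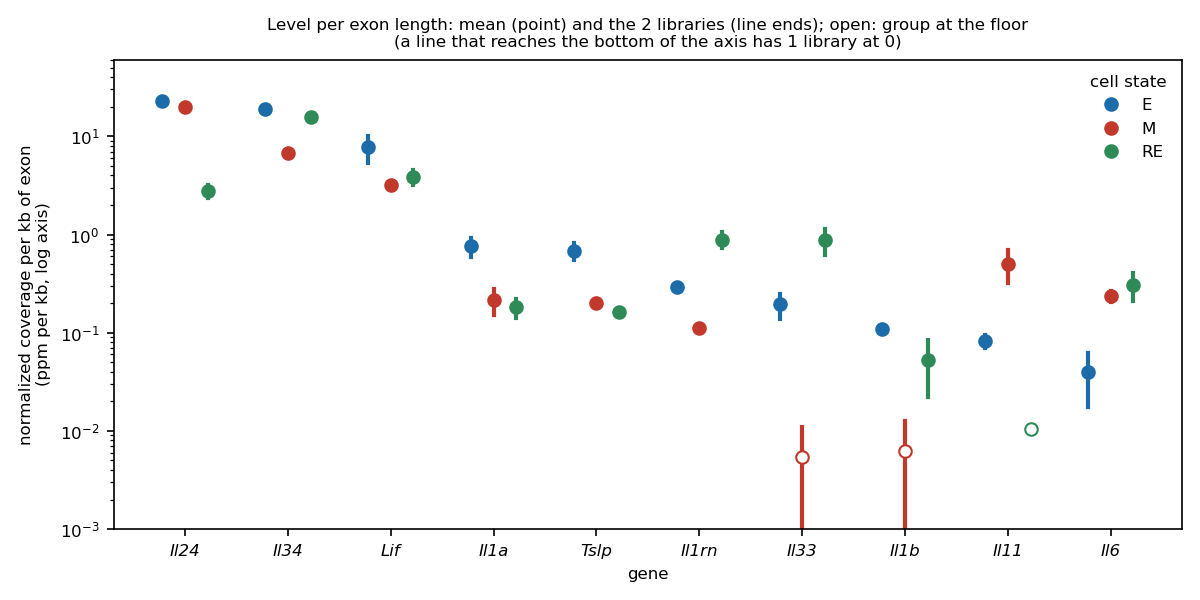
Normalized coverage per kb of exon (ppm per kb, log axis) of the 10 cytokines in E, M and RE cells, ordered by level in E cells. Points are means and line ends are the 2 libraries, and open points are groups at the floor. *Il24* (2.79 ppm per kb in RE cells) moves from the leading level in E and M cells to that of *Lif* (3.87), and *Il33* in M cells lies at the bottom.

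The 10 cytokines together summed to 94.8 and 120 ppm in E, 57.9 and 56.8 ppm in M and 57.9 and 62.5 ppm in RE. *Il24* made up 31.8% and 27.6% of this coverage in E, 50.5% and 45.1% in M and 5.65% and 7.12% in RE. *Il34* made up 37.9% and 31.8%, 23.1% and 22.7%, and 52.0% and 49.8%, respectively. *Il24* was thus the largest contributor in both M libraries and *Il34* in both RE libraries.

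Of the 16 receptor genes listed, 15 were in the table and 11 were tested. The list also holds *Osmr*, the oncostatin M receptor gene, although oncostatin M is not among the cytokines described here. The calls of *Osmr*, higher in M and in RE than in E cells, are included in the counts that follow. In E vs. M 6 of the 11 were called (4 higher and 2 lower in M), in M vs. RE 5 (3 higher and 2 lower in RE) and in E vs. RE 3, all higher in RE, which was 54.5%, 45.5% and 27.3% of the receptors tested, beside 17%, 12.9% and 9.37% of all tested genes. *Lifr*, *Il1r2*, *Il7r* and *Ptprz1* had too little coverage to be tested, and *Il20ra* was not analysed here. *Il6ra*, *Il6st*, *Il11ra1* and *Crlf2* were tested and not called.

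*Il1r1*, the signalling receptor that IL-1 agonists and antagonist compete for, was at 6.59 and 11.6 ppm in E, 7.70 and 8.93 ppm in M and 32.9 and 32.7 ppm in RE. Like *Il1rn*, it was highest in both RE libraries. *Il1r1* rose in RE cells against M (log2 fold change 1.97, limma's adjusted p = 0.00123) and E cells (1.90, adjusted p = 0.00240). The call against M cells was lost without M1 (adjusted p = 0.0177), M2 (0.0117), RE1 (0.0185) or RE2 (0.0158), and that against E cells without RE1 (0.0360) or RE2 (0.0273). *Il1rap*, the accessory chain shared by the IL-1 and IL-33 receptors, rose in M cells from 7.03 and 9.08 ppm to 44.9 and 42.6 ppm (2.44, adjusted p = 5.82e-05) and was at 37.6 and 33.5 ppm in RE cells, above E cells (2.14, adjusted p = 0.000411), a call lost without RE1 (0.0132).

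*Il1rl1*, the gene of the IL-33 receptor ST2, was at 6.41 and 3.82 ppm in E, 33.4 and 36.1 ppm in M and 3.12 and 4.00 ppm in RE. The receptor gene was highest in the M libraries, where *Il33* itself was at the floor. *Il1rl1* rose in M cells (log2 fold change 2.79, limma's adjusted p = 0.000213) and fell in RE against M cells (−3.26, adjusted p = 0.000115), in all 16 alternatives. The IL-34 receptor gene *Csf1r* was also highest in the M libraries. Its coverage was 1.55 and 1.27 ppm in E, 25.8 and 29.9 ppm in M and 2.08 and 1.45 ppm in RE. *Csf1r* rose in M cells (4.21, adjusted p = 2.4e-05) and fell in RE against M cells (−3.93, adjusted p = 3.62e-05), again in all 16 alternatives, so that it was highest where *Il34* was lowest. *Csf1*, the other ligand of that receptor and chosen for mention after its values were seen, was at 215 and 373 ppm in E, 476 and 408 ppm in M and 278 and 339 ppm in RE and was not called.

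**Figure D4:**
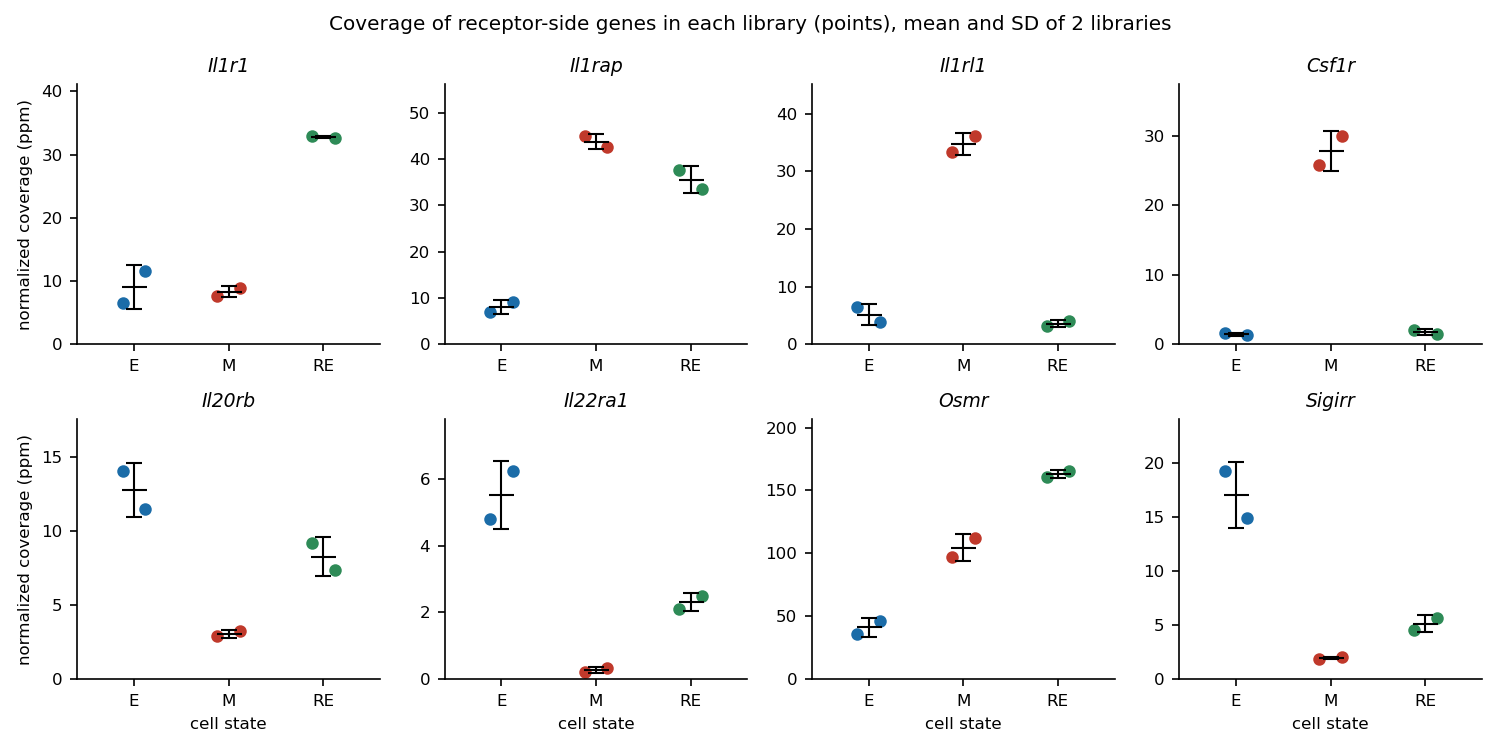
Normalized coverage (ppm, linear axes that differ between panels) of 7 receptor genes and of *Sigirr*, which encodes an inhibitory member of the IL-1 receptor family, in E, M and RE cells. Each point is 1 library and the bars give the mean and SD of 2 libraries. *Il1rl1* and *Csf1r* are highest in M cells, *Il1r1* and *Osmr* in RE cells, and *Il20rb*, *Il22ra1* and *Sigirr* in E cells.

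The receptor genes through which IL-24 acts had another course than *Il24* itself. *Il20rb* was at 14.0 and 11.4 ppm in E, 2.87 and 3.24 ppm in M and 9.18 and 7.33 ppm in RE. It fell in M cells (log2 fold change −2.02, limma's adjusted p = 0.000290) and rose in RE against M cells (1.40, adjusted p = 0.00197), the latter lost without M1 (0.0274), M2 (0.0175), RE1 (0.0318) or RE2 (0.0127). *Il22ra1* was at 4.80 and 6.23 ppm in E, 0.220 and 0.341 ppm in M and 2.12 and 2.49 ppm in RE. It fell in M cells (−3.89, adjusted p = 6.24e-05) and rose in RE against M cells (2.67, adjusted p = 0.000374), in all 16 alternatives. Both receptor genes were thus lowest in M cells, where *Il24* was close to its level in E cells.

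Of the receptor genes of the IL-6 family, *Osmr*, which encodes the oncostatin M receptor, was at 35.8 and 46.6 ppm in E, 97.1 and 112 ppm in M and 161 and 165 ppm in RE. It rose in M cells (log2 fold change 1.35, limma's adjusted p = 0.000662) and was higher still in RE cells against E (1.99, adjusted p = 0.000424). The first call was lost without M2 (0.0132) and the second without RE1 (0.0132). *Il6st*, the shared chain, was at 60.3 and 188 ppm in E, 219 and 225 ppm in M and 370 and 321 ppm in RE, and was not called in any comparison, with E1 and E2 far apart. *Il11ra1*, the IL-11 receptor, was between 3.98 and 7.04 ppm and *Crlf2*, a TSLP receptor chain, between 7.20 and 9.02 ppm in the 6 libraries, and neither was called. *Il7r*, the partner of *Crlf2*, was at most 0.0463 ppm.

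Of the 24 genes of JAK-STAT and IL-1 receptor signalling, all were in the table and 22 were tested. In E vs. M 4 were called (2 higher and 2 lower in M), in M vs. RE 2, both higher in RE, and in E vs. RE 2 (1 in each direction), which was 18.2%, 9.09% and 9.09% of the list and near the share of all tested genes. *Stat5a*, which encodes a STAT protein that the TSLP receptor among others activates, was at 39.4 and 44.7 ppm in E, 17.1 and 17.4 ppm in M and 81.9 and 67.4 ppm in RE. Like *Il1rn* and *Il33*, it was lowest in M and highest in RE cells. It fell in M cells (log2 fold change −1.28, limma's adjusted p = 0.000622), a call lost without M1 (0.0121) or M2 (0.0110), and rose in RE against M cells (2.10, adjusted p = 7.23e-05), while E vs. RE stayed under the fold threshold (0.82, adjusted p = 0.00729). *Sigirr*, whose product restrains IL-1 and IL-33 signalling, was at 19.2 and 14.9 ppm in E, 1.87 and 2.04 ppm in M and 4.55 and 5.68 ppm in RE. It fell in M cells (−3.05, adjusted p = 6.01e-05), rose in RE against M cells (1.34, adjusted p = 0.00301) and was lower in RE than in E cells (−1.72, adjusted p = 0.00168). The second call was lost without M1 (0.0355), M2 (0.0249), RE1 (0.0199) or RE2 (0.0377) and the third without RE1 (0.0308) or RE2 (0.0159).

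The remaining signalling calls were single ones. *Jak1* rose in M cells (log2 fold change 1.10, limma's adjusted p = 0.000469), but not without M1 (adjusted p = 0.0121) or with library totals as the scaling (0.79). *Socs2*, a feedback inhibitor, rose in M cells (1.17, adjusted p = 0.00320), but not without M1 (0.0407), M2 (0.0284), RE1 (0.0117) or RE2 (0.0114). *Stat3*, the main STAT of the IL-6 family, was at 70.0 and 100 ppm in E, 136 and 144 ppm in M and 198 and 176 ppm in RE. It rose in RE against E cells (1.16, adjusted p = 0.00423), a call lost without any 1 library other than E2 (without E1 the value was 0.90, and without RE1 the adjusted p was 0.0634).

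Another 37 interleukins and related factors were looked up, of which 27 were in the table and 15 were tested. In each comparison 2 of the 15 were called (13.3%), near the 17%, 12.9% and 9.37% of all tested genes. Both were lower in M in E vs. M and both lower in RE in E vs. RE, beside 8.39% and 3.17% of all tested genes called lower there, and 1 was called in each direction in M vs. RE. *Il16* was at 1.30 and 1.43 ppm in E, 0.191 and 0.199 ppm in M and 3.56 and 1.64 ppm in RE, an order shared with *Il33*. It fell in M cells (log2 fold change −2.31, limma's adjusted p = 0.00248) and rose in RE against M cells (3.10, adjusted p = 0.000840). The fall was not called without M1 (0.0231) or M2 (0.0213), nor the rise without M1 (0.0104). *Csf3*, the granulocyte growth factor, was at 32.0 and 26.0 ppm in E, 4.89 and 2.96 ppm in M and 8.88 and 6.50 ppm in RE. It fell against E cells in M (−2.89, adjusted p = 0.000221) and in RE cells (−1.91, adjusted p = 0.00292), the latter lost without RE1 (0.0243) or RE2 (0.0323). *Il23a* was at 9.33 and 11.4 ppm in E, 9.39 and 7.89 ppm in M and 3.95 and 4.51 ppm in RE, lowest in RE cells like *Il24*. It was called lower in RE cells against E (−1.27, adjusted p = 0.00378) and, at the fold threshold, against M (−1.01, adjusted p = 0.00723). The call against E was lost without M1 (0.0130), M2 (0.0127), RE1 (0.0557) or RE2 (0.0295), and that against M in 10 of 16 alternatives, among them without any 1 library other than E1.

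For each tested cytokine, the genes with the most similar course were those with the smallest Euclidean distance between centred log2 values over the 6 libraries, among all tested genes. *Il24* was closest to *Areg*, which encodes the EGF receptor ligand amphiregulin (distance 0.42), at 48.5, 42.8 and 5.02 ppm on average in E, M and RE, and then to *Slc4a11* (0.80). *Il34* was closest to *Ccdc136* (0.16) and *Tnfrsf18* (0.17), and these were the smallest distances of the 9. *Il1rn* was closest to *BC057170* (0.41) and *Atp8b4* (0.42), and *Il33* to *AC168276.3* (0.47) and *Gstm7* (0.61). *Il11* was closest to *Mmp1b* (0.49) and *Tsp50* (0.67), *Il6* to *9130213B05Rik* (0.27) and *Rasl12* (0.50), and *Il1a* to *Cilp* (0.41) and *Hmga1* (0.43). *Lif* was closest to *Hist1h2ac* (0.31) and *AC134908.5-1* (0.32) and *Tslp* to *0610037D15Rik* (0.29) and *AL645623.13* (0.33). None of these neighbours was itself one of the 10 cytokines.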

How the data were processed

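RNA from E, M and RE cells was sequenced by the authors (Illumina Genome Analyzer, 2 libraries per state) and unique reads were mapped with Bowtie and TopHat2 to the mouse genome (NCBI-m37). The labels' protocol speaks of 3 biological replicas, of which 2 per state were sequenced. The deposited table is named as counts but was taken to hold coverage (signal): for each gene the number of sequenced bases, not normalized. This reading, and the read length of 50 bases, were inferred from the values. Between 44.8% and 48.4% of its values from 1 to 400 were multiples of 50. The summing step and its annotation are not given in the sources used here, so overlapping genes may share coverage. All 6 columns were used.

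Coverage was scaled to ppm with unweighted TMM (30% of log ratios and 5% of means trimmed, factors 0.871 to 1.12) in R 4.3.3. limma 3.58.1, with a trend on mean level, was fitted to log2(ppm + 0.1) with state as the only term. The authors' test, edgeR, was left out because it is made for read counts. The procedure was tested on simulated data. Exact counting intervals at 95% treat 50 bases as 1 read and cover counting error only.

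The members and lists were chosen with earlier results of these data known. Named genes are the 10 cytokines, up to 6 called genes of each companion list by smallest adjusted p, the receptors of called cytokines, and the 2 genes closest to each cytokine in course. Promoter windows came from RefSeq and were trimmed to the bases before the start. Alternatives were fold and adjusted p thresholds, scaling, no filter, pseudocounts of 0.025 and 1 ppm, 2-group fits, the replicate number as a block, array weights and leaving out each library. Without E1 or E2 the spread of E cells, the widest of the states, was not measured. A call gained in such a fit rests on the spread of M and RE cells.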

Additional observations from a re-analysis of the deposited data

How the results depend on the processing

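Among the cytokines, 355 of the alternative values kept their direction and their side of the threshold, 43 lost a call, 24 gained one and 4 changed sign. Signs changed in M vs. RE only, in values that were not called: *Il1a* 0.17 without M2 and 0.07 without RE2 (range over the libraries left out −0.53 to 0.17), *Il6* −0.12 without RE1 (−0.12 to 0.69), and *Lif* −0.0018 without RE2 (−0.0018 to 0.53). The receptor *Il1r1* changed sign in E vs. M, to 0.31 without E2 and 0.03 without M1 (−0.47 to 0.31). The number of cytokines called was 8 in E vs. M and 6 in E vs. RE at an adjusted p of 0.05, 2 and 1 with array weights, 2 and 1 in fits of only the 2 groups compared, 1 in E vs. RE without the filter and 1 in E vs. M with a pseudocount of 1 ppm, under which fold changes of low genes shrink by construction. The other cytokines called in M vs. RE were 4 at an adjusted p of 0.05, 5 with array weights, 5 in the 2-group fit, and 1 each with library totals, median-of-ratios factors, no filter and a pseudocount of 1 ppm. They were 1 in E vs. M with that pseudocount and 1 in E vs. RE in the 2-group fit. Receptors called in E vs. RE were 5 at an adjusted p of 0.05. Signalling genes called in E vs. RE were 4 at that threshold and 1 in the 2-group fit, and in M vs. RE 4 at a fold of 1.5. DEGs in E vs. RE numbered 1302, and 525 in the 2-group fit. Beyond the shift by construction, the cause of these changes was not tested.

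Leaving out 1 library, the lone library of its state being assumed to vary like the others, gave for E vs. M, M vs. RE and E vs. RE 945 to 3362, 683 to 2337 and 44 to 2348 DEGs, with 44 in E vs. RE without RE1 and 160 without RE2. Cytokines called were 1 to 7, 3 to 5 and 1 to 6, the lowest without M1 or M2 in E vs. M and without any 1 M or RE library in the other comparisons. Receptors were 5 to 7, 3 to 6 and 0 to 4, signalling genes 1 to 8, 1 to 2 and 0 to 4, and other cytokines 1 to 3, 0 to 5 and 0 to 5. Scaling by library totals moved the median log2 fold change of all tested genes to −0.29, 0.18 and −0.08 in the same order. No called cytokine changed sign with it, but the calls in E vs. M changed. There 6 cytokines were called, all lower in M. *Il11* was no longer called (1.77, limma's adjusted p = 0.0137), while *Il1a* (−1.86), *Lif* (−1.51) and *Tslp* (−1.69) were.

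The replicate numbers come from the labels. Same-numbered deviations correlated at 0.27 between E and M, 0.06 between E and RE and 0.12 between M and RE, so the libraries were taken to share only a number. With the replicate number as a block, 2431, 1830 and 1284 DEGs were called in E vs. M, M vs. RE and E vs. RE, with 5, 5 and 4 cytokines, 6, 5 and 3 receptors, 4, 2 and 2 signalling genes and 2, 2 and 2 other cytokines. *Lif* was then called in E vs. M, *Il18* in M vs. RE and *Il6* and *Il33* in E vs. RE, while *Tslp* in E vs. RE and *Il23a* in M vs. RE were not. No other call in these lists changed with the block.

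Depth limits *Il1b*, *Il33* and *Il11*, which had 1 or 2 reads' worth in a whole state, and *Il6* in E cells. *Tslp* (9.72 to 12.2 reads' worth in M and RE cells) and *Il1a* (12.3 to 22.8) were also thinly covered. The number of libraries, 2 per state, limits the precision for all 10 cytokines.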
